A study of Mus musculus with 4 samples.

Results

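The variable genes of the immunoglobulin light chains were read in ChAT-eGFP+ cells of mouse inguinal white adipose tissue (IWAT) at thermoneutrality (30 °C) and after acute cold (4 °C). A gene was taken as a member if its symbol began with Igkv (kappa) or Iglv (lambda) and it held 10 or more unique molecular identifiers (UMIs, 1 per captured RNA molecule) over the 4 libraries. 99 of 163 listed light chain V genes met this rule, 96 Igkv and 3 Iglv, among 31053 genes in all. A further 31 genes held 1 to 9 UMIs and 33 held 0. At the limit, Igkv11-125, Igkv13-55-1 and Igkv9-119 held 10 UMIs each, and Igkv4-73, the nearest gene outside, held 9.

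The cells came from the stromal vascular fraction (SVF) of male ChATBAC-eGFP mice, in which a bacterial artificial chromosome transgene drives eGFP from the Chat promoter, and were sorted for eGFP before 3′ single-cell RNA sequencing. All mice entered thermoneutrality at 5 weeks of age, spent 3 weeks at 30 °C and were harvested at about 8 weeks. After those weeks the cold groups spent 24 h at room temperature and 4 h at 4 °C, whereas the control groups stayed at 30 °C, so the cold cannot be told apart from the day at room temperature. There were 2 libraries per temperature, each from 4 pooled mice.

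An antibody light chain gene is assembled in the developing B cell by joining 1 of many V gene segments to a J segment, and each B cell normally keeps a single productive light chain, kappa or lambda. The choice of V gene is therefore a mark of a cell and of its descendants. A resting B cell holds little of this RNA, whereas a plasma cell, the antibody-secreting stage, holds a great deal, so that a few plasma cells can carry most of the RNA of a V gene in a tissue.

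Of 21253 cells that passed the study's filter on gene number and mitochondrial RNA, 10852 were taken as B cells (a UMI of Cd79a, a part of the B cell receptor) and 481 as plasma cells (20 or more UMIs of Jchain, the joining chain of secreted antibody, with a UMI of Derl3, a protein of endoplasmic reticulum quality control). The libraries held 76058112 to 84468931 UMIs, and the 30 °C and 4 °C libraries 1 and 2 gave 2699, 2853, 2302 and 2998 B cells and 147, 119, 101 and 114 plasma cells. In the B cells, 87.2 to 89.3% held Ms4a1 (CD20) and 72.9 to 78.0% held Ighd, the constant gene of IgD. In the plasma cells, every cell held Mzb1, an endoplasmic reticulum protein of antibody-secreting cells, and 70.6 to 76.9% held Prdm1, the regulator of the plasma cell fate. T cell RNA was also present: 16.0 to 19.4% of the B cells and 27.2, 26.1, 18.8 and 20.2% of the plasma cells held a UMI of Cd3e or Cd3d. Between 10 and 18 cell barcodes were shared by each pair of libraries.

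The named V genes lay in 2 loci of the GRCm38/mm10 build. The 96 Igkv members spanned chromosome 6 from 67555497 to 70704177, and the 3 Iglv members lay on chromosome 16. The annotation gave 91 members as V genes and 8 as pseudogenes, against 12 V genes and 52 pseudogenes among the 64 light chain V genes under the limit. The 3′ ends of 7 V exons are shown, because the lambda genes and the kappa genes below carry the results, and capitals mark the stretch from the codon of the last in-frame cysteine to the end of the V exon, which opens the antigen-contacting loop (CDR3). They are the last 99 annotated coding bases, 5′ to 3′ on the coding strand, of Iglv1 (chr16:19085017-19085500, minus), Iglv2 (chr16:19260401-19260859, minus), Iglv3 (chr16:19241207-19241690, minus), Igkv14-126 (chr6:67896172-67896642, plus), Igkv1-110 (chr6:68270485-68271267, plus), Igkv8-27 (chr6:70171809-70172270, minus) and Igkv2-112 (chr6:68219981-68220706, plus).
Iglv1: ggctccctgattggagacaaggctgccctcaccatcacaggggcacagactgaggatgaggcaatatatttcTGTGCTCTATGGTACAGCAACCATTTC
Iglv2: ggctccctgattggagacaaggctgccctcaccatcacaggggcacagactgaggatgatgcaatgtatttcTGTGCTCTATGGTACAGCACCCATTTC
Iglv3: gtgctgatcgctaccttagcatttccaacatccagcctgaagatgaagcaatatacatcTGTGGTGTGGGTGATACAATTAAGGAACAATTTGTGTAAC
Igkv14-126: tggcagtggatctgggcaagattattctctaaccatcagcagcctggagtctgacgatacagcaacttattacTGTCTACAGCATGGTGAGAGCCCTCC
Igkv1-110: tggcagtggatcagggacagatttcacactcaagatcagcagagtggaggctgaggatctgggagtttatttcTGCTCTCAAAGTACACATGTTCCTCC
Igkv8-27: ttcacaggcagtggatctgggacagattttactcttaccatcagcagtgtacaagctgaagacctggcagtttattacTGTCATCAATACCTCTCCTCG
Igkv2-112: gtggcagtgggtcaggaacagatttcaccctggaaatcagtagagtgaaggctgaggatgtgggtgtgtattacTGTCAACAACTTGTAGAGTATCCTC
Iglv1 and Iglv2 matched at 338 of 351 aligned coding bases (96.3%) and at 96 of the 99 bases shown, whereas Iglv1 and Iglv3 matched at 58.7%. Igkv1-110 and its near copy Igkv1-117 matched at 97.2%. Over transcript windows of 91 bases, the length of a read, Iglv1 shared 4.65% of its windows with Iglv2, and Igkv1-110 shared 21.5% with Igkv1-117, so reads of these pairs could in part be assigned to either. No window of Igkv14-126, Igkv8-27 or Igkv2-112 was found in another light chain V gene. Of the 99 members, 45 shared at least 1 such window with another.

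Light chain V RNA lay mainly in the plasma cells. They held 16198, 13135, 12296 and 14842 member UMIs in the 30 °C and 4 °C libraries 1 and 2, and the far more numerous B cells held 2048, 2629, 2155 and 2777. Plasma cells thus carried 88.8, 83.3, 85.1 and 84.2% of the V UMIs of both populations. The share was 86.0% ± 3.86 (SD, n = 2) at 30 °C and 84.7% ± 0.600 (SD, n = 2) at 4 °C (exact permutation test, two-sided, p = 1, where 2 libraries against 2 cannot give less than 0.333). A plasma cell held a median of 92, 73, 87 and 100 V UMIs, and a B cell held 0.759 to 0.936 on average. T cells, which should lack V RNA, held 0.0857 to 0.151 per cell, at a median of 6137 to 6938 UMIs of all genes against 8198 to 8746 in B cells and 29734 to 32965 in plasma cells.

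Single V genes dominated the RNA. Iglv1, the most used lambda gene of mice, held 28420 of the 79010 member UMIs over all barcodes (36.0%), followed by Igkv1-110 with 4349, Igkv10-96 with 2782, Igkv1-117 with 2765, Igkv12-44 with 2743 and Iglv3 with 2731. The 10 highest genes held 65.5%, and the median member held 234.

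For most members a few cells held the RNA. In 91 of 99 members, the 10 highest B or plasma cells carried 50% or more of the UMIs, and the median share of these 10 cells was 86.7% (9.63 to 100%). A member with few UMIs reaches 50% however they are spread, since 10 cells with 1 UMI each already hold much of the sum. The count and the median include such members, among them Igkv11-125, Igkv13-55-1 and Igkv9-119 with 10 UMIs each over all barcodes. The median number of cells that together held 50% of a member's UMIs was 3, and in 18 members that number was 1. The widest spread was that of Iglv3, whose 2294 UMIs lay in 1038 cells and needed 133 cells for 50%. Iglv1 came next, with 23510 UMIs in 1646 cells and 50 cells for 50%. Of the kappa genes with over 1000 UMIs, Igkv1-110 and Igkv10-96 needed 12 and 11 cells, and Igkv1-135 needed 2.

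**Figure D1:**
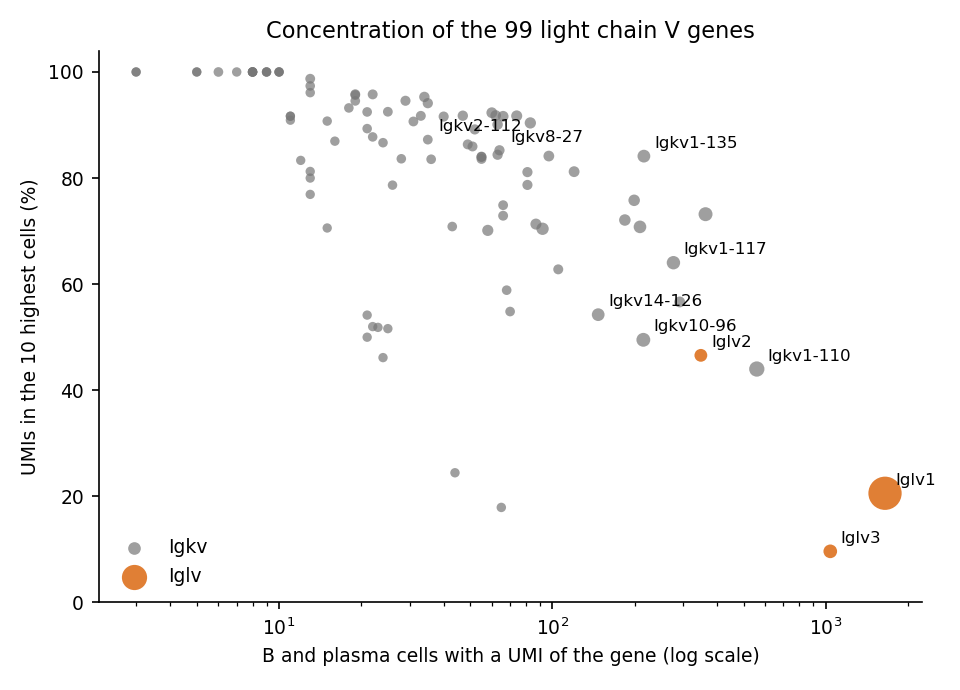
Each point is 1 of the 99 light chain V genes, with the number of B and plasma cells that held a UMI of it (x axis, log scale) and the percentage of its UMIs in its 10 highest cells (y axis). Point area grows with the gene's UMIs, Iglv genes are orange, and most Igkv genes lie above 50% while Iglv1 (20.6%) and Iglv3 (9.63%) lie low and far to the right.

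To count cells rather than molecules, a cell was assigned to its highest V gene if that gene held 3 or more UMIs and 60% or more of the cell's V UMIs. This assigned 107, 81, 71 and 82 plasma cells (68.1 to 72.8% of them) and 45, 61, 80 and 82 B cells (1.67 to 3.48%), so use in B cells was read from few of them. No T cell was assigned. Assigned cells used 71 of the 99 members, 63 in plasma cells and 50 in B cells, and 26 of the genes used by plasma cells were seen in 1 library only. B cells in every library used 9 genes: Iglv1, Igkv1-110, Igkv1-117, Igkv1-135, Igkv12-44, Igkv12-46, Igkv14-111, Igkv14-126 and Igkv6-15. Plasma cells in every library used 13, among them Iglv1, Iglv2, Igkv1-110, Igkv1-117, Igkv10-96, Igkv14-126 and Igkv15-103.

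Iglv1 was the most assigned gene in both populations. It took 28.8% ± 9.85 (SD, n = 4 libraries) of the assigned B cells and 18.5% ± 4.51 (SD, n = 4) of the assigned plasma cells. Igkv1-110 followed in B cells with 8.48% ± 6.55 (SD, n = 4), and Igkv14-126 in plasma cells with 6.28% ± 5.78 (SD, n = 4). The effective number of V genes (the inverse Simpson index, high for even use of many genes) was 16.6, 11.4, 15.7 and 14.7 in plasma cells and 11.8, 5.72, 8.49 and 8.04 in B cells. By this rule it was higher in plasma cells in 4 of 4 libraries, by 6.08 ± 1.07 (SD, n = 4). The exact paired sign-flip test, two-sided, gave p = 0.125, the smallest that 4 pairs allow. With 2 or more UMIs as the limit for assignment, it was 16.48, 11.42, 14.98 and 13.52 in plasma cells. In B cells it was then 14.11, 11.94, 9.33 and 12.22. The order turned in the 30 °C library 2, so the higher value of plasma cells in every library depended on the limit. The lambda shares that follow use 3 or more UMIs. The lambda share of assigned cells was 17.8, 39.3, 35.0 and 34.1% in B cells and 21.5, 32.1, 19.7 and 24.4% in plasma cells, and this difference was not beyond the spread of the libraries (exact sign-flip p = 0.25). The plasma cell share depends on the rule. With V genes assigned only within the class of the constant gene (described below, added after the values were seen), it was 11.5, 14.4, 4.55 and 11.5%. These values lay under the B cell values in 4 of 4 libraries (exact sign-flip p = 0.125, the smallest possible). The B cells were not assigned by that rule, which by construction gives no kappa-led cell to Iglv1. The comparison is thus of unlike rules and cannot show a difference between the populations.

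The assigned B cells were not typical of the population. B cells assigned to Iglv1 numbered 7 and 24 at 30 °C and 24 and 25 at 4 °C. Their median depth was 15757, 19991, 17025 and 11819 UMIs, above that of all B cells (8415, 8198, 8746 and 8661). The part of depth in the B cell values was not tested. After thinning to 4000 UMIs per cell, 10, 10, 17 and 16 B cells were assigned.

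The share of B cells with an assigned V gene was 1.90% ± 0.333 at 30 °C and 3.11% ± 0.523 at 4 °C (SD, n = 2 each), with both cold libraries above both 30 °C libraries (exact permutation p = 0.333, the smallest possible). The lambda share and the effective number did not separate the temperatures. The lambda share of assigned B cells was 28.6% ± 15.2 (SD, n = 2) at 30 °C and 34.6% ± 0.604 (SD, n = 2) at 4 °C (exact permutation p = 1), and without the 30 °C library 1 the difference turned from 6.01 to -4.77 percentage points. The effective number was 8.78 ± 4.33 and 8.27 ± 0.315 (SD, n = 2 each) in B cells and 14.0 ± 3.68 and 15.2 ± 0.723 in plasma cells (exact permutation p = 1 for both). Without the 30 °C library 1 the B cell difference was 2.55 and without library 2 it was -3.58, and the plasma cell difference was 3.78 and -1.42.

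Iglv1 RNA was found mostly in plasma cells whose light chain was kappa, which were also most of the plasma cells. Each plasma cell was put in a class by its light chain constant genes, which hold far more UMIs: kappa-led if Igkc, and lambda-led if Iglc1, Iglc2 and Iglc3 together, made up 80% or more of at least 500 constant UMIs (a rule set after the values had been seen). There were 384 kappa-led cells (120, 86, 88 and 90), 50 lambda-led cells (18, 16, 4 and 12), 13 between these limits and 34 with under 500 UMIs. Of the 21616 Iglv1 UMIs in plasma cells, 16584 (76.7%) lay in kappa-led cells, 75.2, 62.2, 89.2 and 83.5% per library. The 50 lambda-led cells held 4224 (19.5%). Kappa-led cells made up 79.8% of the plasma cells and lambda-led cells 10.4%, so Iglv1 was not concentrated in kappa-led cells. Over all libraries the median was 13.5 Iglv1 UMIs per kappa-led cell and 25.5 per lambda-led cell.

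This Iglv1 RNA was widespread among the kappa-led cells and came beside an Igkv gene. Of the 384 cells, 311 (81.0%) held 3 or more Iglv1 UMIs, and the median was 11, 9.5, 18 and 28 Iglv1 UMIs per cell. The same cells held a median of 62, 63.5, 69.5 and 76.5 summed Igkv UMIs, and Iglv1 exceeded that sum in 65 of them. Their Iglc1, the constant gene next to which Iglv1 usually rearranges, was low, at a median of 38 UMIs against 13947 of Igkc. Set against 1000 Iglc1 UMIs, 375 of the kappa-led cells held a median of 341 Iglv1 UMIs and the 20 cells led by Iglc1 held 9.56. The class rule uses the same constant genes, so the low Iglc1 and this gap follow from it in part and are no test. By the rule that takes any V gene, 62 plasma cells were assigned to Iglv1, of which 37 were kappa-led and 21 lambda-led.

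**Figure D2:**
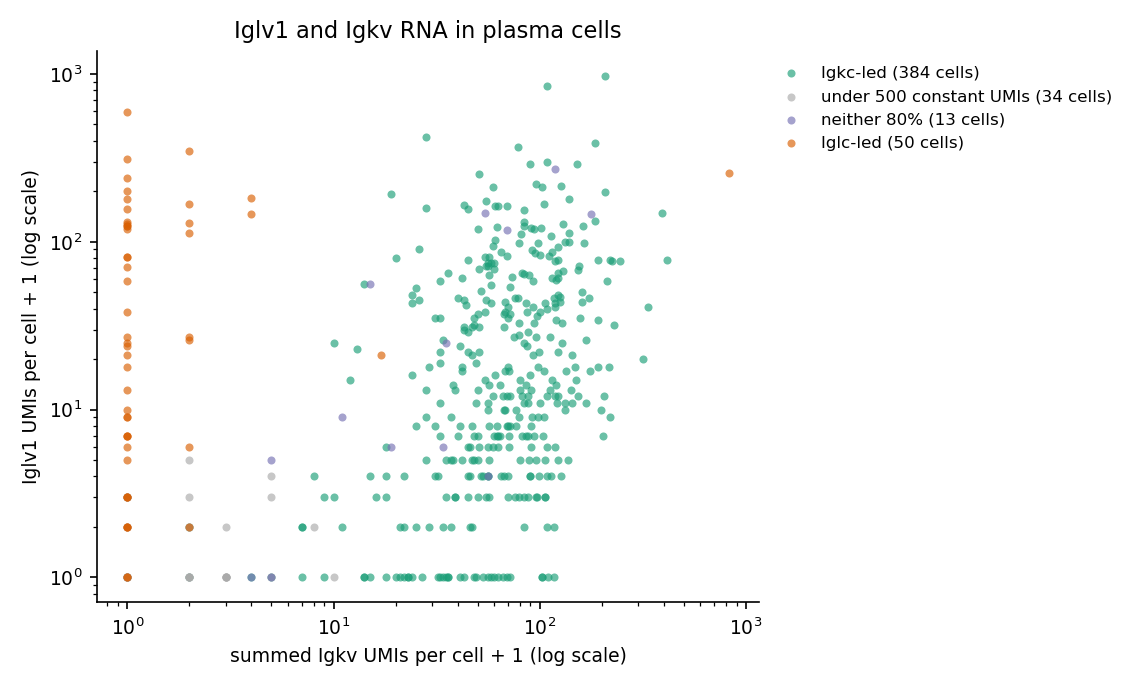
Each point is 1 of 481 plasma cells of the 4 libraries, with its summed Igkv UMIs plus 1 (x axis, log scale) and its Iglv1 UMIs plus 1 (y axis, log scale), coloured by the leading light chain constant gene. The 384 Igkc-led cells sit to the right with Iglv1 from 0 to 974 UMIs, and nearly all of the 50 Iglc-led cells lie at the left edge.

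The 3 lambda genes did not share this pattern. Iglv3 resembled Iglv1: kappa-led cells held 89.5% of its 1527 plasma cell UMIs, 164 of 384 held 3 or more, and it led no plasma cell. Iglv2, 96.3% identical to Iglv1, lay in lambda-led cells with 78.4% of its 1472 UMIs, and 3 kappa-led cells held 3 or more. Within kappa-led cells of 1 library (n = 86 to 120 cells), the Spearman correlation of Iglv1 with Iglv3 was 0.504 to 0.636, that of Iglv1 with Iglc1 was -0.047 to 0.226, and that of Iglv1 with the cell's total UMIs was 0.470 to 0.587, a description of cells that share a library and differ in depth.

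Where lambda was the light chain, Iglv1 mainly accompanied Iglc1 and Iglv2 mainly Iglc2, the pairings favoured by the order of the locus. Of 23 lambda-led cells assigned to Iglv1, 18 had Iglc1 as the leading constant gene, 4 had Iglc2 and 1 had Iglc3. Of 21 assigned to Iglv2, 17 had Iglc2, 2 had Iglc3 and 2 had Iglc1. The other 6 lambda-led cells had no V gene assigned, and Iglc2 led in all 6. A single lambda-led cell of the 4 °C library 2 stood apart in holding 828 UMIs of Igkv1-135.

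Iglv1 was also read in other cell types. A UMI of Iglv1 was found in 2.27 to 3.09% of T cells, 6.47 to 8.90% of kappa-led B cells and 29.8 to 39.5% of lambda-led B cells (the class rule with 50 constant UMIs). Only 8.13 to 14.2% of B cells were kappa-led and 7.67 to 11.8% lambda-led, and 77.6 to 83.4% were in neither class. T cells held 0.0232 to 0.0325 Iglv1 UMIs per cell at median depths of 6137 to 6938 UMIs, and all plasma cells held 34.6 to 53.9 at median depths of 29734 to 32965. The part of free RNA in these values was not tested. Igkv UMIs were found in 46.5 to 55.6% of kappa-led B cells and 18.0 to 25.5% of lambda-led B cells.

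Kappa-led plasma cells that had switched to IgA or IgG held more Iglv1 RNA than those with IgM. Cells led by Ighm (211 cells) held a median of 4.5, 3, 7 and 7 Iglv1 UMIs in the 30 °C and 4 °C libraries 1 and 2. Cells led by Igha (122 cells) held 38, 21, 45 and 46, and cells led by an Ighg gene (51 cells) held 29.5, 38.5, 47 and 70. In every library both of these medians lay above that of the Ighm cells. Per 1000 Igkc UMIs, Iglv1 was at 0.410, 0.400, 0.584 and 0.577 in Ighm cells and at 2.68, 2.11, 2.10 and 3.20 in Igha cells. The log2 ratio was 2.36 ± 0.36 for Igha and 2.55 ± 0.21 for Ighg against Ighm (SD, n = 4 libraries), higher in 4 of 4 (exact paired sign-flip test, two-sided, p = 0.125, the smallest that 4 pairs allow).

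The kappa V genes of the same cells showed no such step. Summed Igkv stood at 5.06 ± 0.0942, 5.21 ± 0.380 and 5.03 ± 0.555 UMIs per 1000 Igkc UMIs (SD, n = 4) in Ighm, Igha and Ighg cells, with log2 ratios to Ighm of 0.04 ± 0.13 and -0.01 ± 0.15 (exact sign-flip p = 0.5 and 1). Depth moved with the groups: the median cell held 28365 UMIs in Ighm, 39066 in Igha and 38454 in Ighg cells (means of 4 libraries), and its part in the Iglv1 values was not tested beyond the scaling to Igkc.

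**Figure D3:**
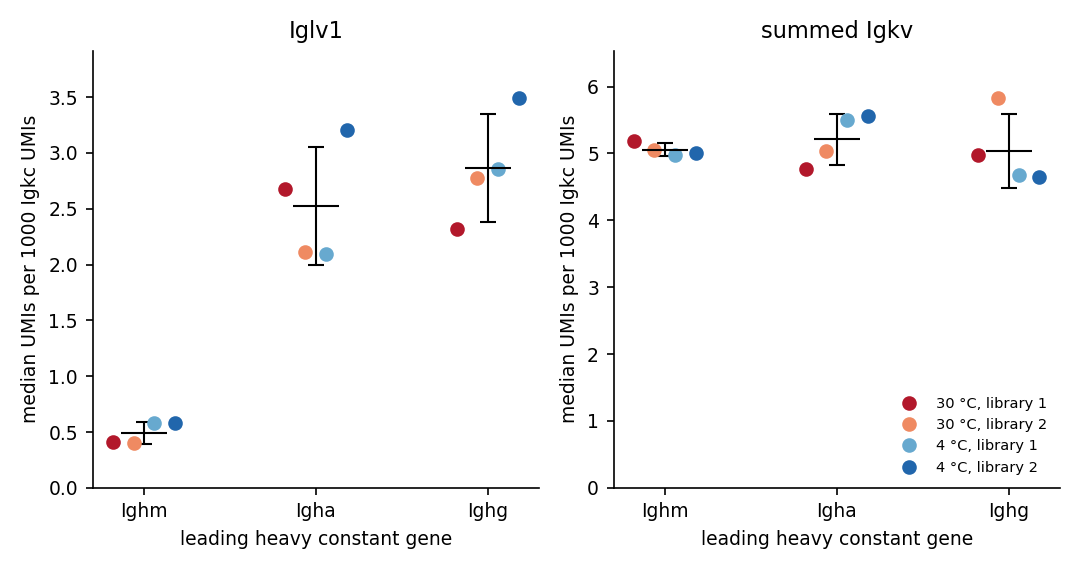
Median UMIs per 1000 Igkc UMIs of Iglv1 (left) and of all Igkv genes summed (right) in kappa-led plasma cells, by leading heavy constant gene (x axis), 1 point per library, with the mean and SD of 4 libraries. Iglv1 lies between 0.400 and 0.584 in Ighm cells and above 2.09 in Igha and Ighg cells, whereas Igkv stays between 4.64 and 5.84 in all 3.

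Iglv1 in kappa-led cells was also read by temperature. Its median per cell was 10.2 ± 1.06 UMIs at 30 °C and 23.0 ± 7.07 at 4 °C (SD, n = 2 each), and the share of cells with 3 or more was 75.3% ± 0.411 and 87.6% ± 1.79. Both 4 °C libraries lay above both 30 °C libraries in each measure, which gives p = 0.333 in the exact permutation test, the smallest possible here. Summed over plasma cells, Iglv1 did not pass the edgeR test (log2 fold change 0.13 ± 0.18 SE, adjusted p = 0.917).

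Within the class of its constant gene, 411 plasma cells could be assigned to a V gene, and use was broad. They used 68 genes, of which 15 appeared in every library, 20 in 1 library and 11 in a single cell, and the first 10 genes took 46.5% of the cells. The effective number was 24.6, 25.9, 19.8 and 26.5 in the 30 °C and 4 °C libraries 1 and 2, against 16.6, 11.4, 15.7 and 14.7 by the rule that takes any V gene. Igkv1-110 led with 26 cells (12, 5, 2 and 7 per library), then Iglv1 with 23 (7, 8, 2 and 6) and Igkv14-126 with 23 (11, 1, 1 and 10). Igkv5-39 was uneven, with 5, 1, 11 and 2 cells, and Igkv1-117 even, with 3, 4, 4 and 4.

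**Figure D4:**
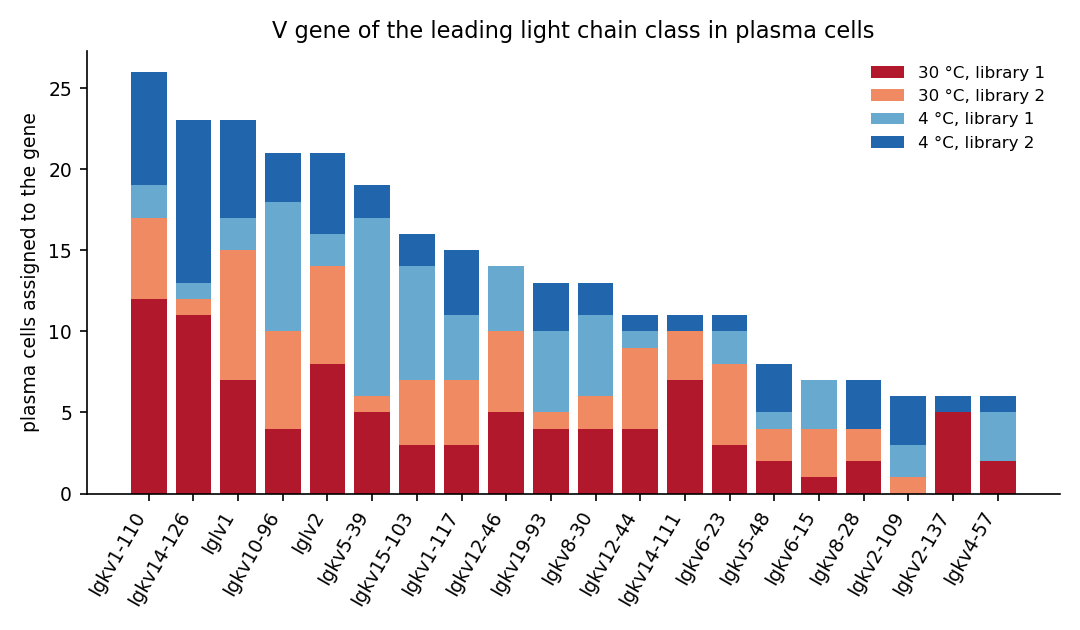
Plasma cells assigned to a V gene within their light chain class (y axis, cells) for the 20 most used genes (x axis), stacked by library. Igkv1-110 leads with 26 cells, and Igkv14-126 and Igkv5-39 draw most of their cells from 1 or 2 libraries.

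The heavy chain partner separated shared from spread use. All 23 Igkv14-126 plasma cells carried Ighv11-2 as the heavy V gene, and no Ighv11-2 cell had another assigned light V gene. Of these, 21 were led by Ighm and 2 by Ighg2b, and they came from every library (11, 1, 1 and 10). Ighv11-2 with this kappa gene is a known pairing of B-1 cells, the self-renewing B cells of body cavities, whose antibodies bind phosphatidylcholine. Igkv7-33, with 6 plasma cells over the 4 libraries, paired with Ighv7-1 in 6 of 6, all led by Ighm, a pairing known from antibodies to phosphorylcholine. Igkv15-103 shared Ighv7-1 in 6 of 16 cells. By contrast the 25 Igkv1-110 cells with a heavy V gene spread over 16 heavy V genes, the most frequent with 4 cells.

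The leading heavy constant gene also differed between V genes, given here as counts with no test. Igkv14-126 cells were led by Ighm in 21 of 23, and Iglv2 cells in 18 of 21. Igkv12-46 cells were led by Igha in 9 of 14 and by Ighm in 5. Igkv12-44 cells were led by Igha in 7 of 11, and Igkv10-96 cells by Igha in 9, Ighm in 9 and Ighg2b in 3. IgM is secreted without class switching, and IgA is the main class of mucosal plasma cells.

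Several V genes rested on single plasma cells within a library. Igkv1-135 held 398, 106, 43 and 981 plasma cell UMIs, and 1 cell of the 4 °C library 2, the lambda-led cell with Igkv RNA, carried 828 of the 981. Igkv17-127 held 165, 0, 0 and 2, of which 1 cell carried 120. Igkv6-15 held 77, 242, 253 and 0, and a single cell carried 76 of the 77 in the 30 °C library 1. Igkv12-46 held 542, 362, 468 and 36, and 35 of the 36 lay in 1 cell. Igkv19-93 held 135, 24, 554 and 129, with 213 of the 554 in 1 cell. None of these genes passed the edgeR test in plasma cells with all 4 libraries, and Igkv17-127 was under its filter. Igkv12-46 and Igkv6-15 passed without the 4 °C library 1 (adjusted p = 0.00473 and 0.0222) and Igkv19-93 without the 30 °C library 1 (0.0239).

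Cells with the same light V gene, heavy V gene and heavy constant gene in a library were counted as a group. Such groups are not clones, since no junction sequence was read and each library pools 4 mice. Of 396 plasma cells with both V genes, 275 (69.4%) stood alone in 321 combinations, and 53 (13.4%) lay in 12 groups of 3 or more. The share in groups of 3 or more was 20, 6.32, 16.9 and 8.60% per library. The largest were Igkv14-126 with Ighv11-2 and Ighm, 11 cells in the 30 °C library 1 and 8 in the 4 °C library 2. Igkv5-39 with Ighv2-3 and Ighm followed with 5 cells, all in the 4 °C library 1, and 2 groups of 4 cells lay in the 30 °C library 1, Igkv14-111 with Ighv1-75 and Ighg2b and Igkv1-110 with Ighv1-74 and Ighm.

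Between 4 °C and 30 °C, the V genes past the threshold in plasma cells, Igkv8-27 and Igkv2-112, rested on a few cold cells. UMIs were summed per library and tested with edgeR's quasi-likelihood test, adjusted over all genes (Benjamini-Hochberg, 0.05), where fewer cells of a kind and less RNA per cell cannot be told apart. Of 58 members tested in plasma cells, 2 passed, both higher at 4 °C, on a background of 9 of 8501 genes in either direction (0.106%) and 4 of 8501 higher at 4 °C (0.0471%). Both passed the filter on low counts through the 4 °C libraries alone, so their calls describe these libraries and do not support an effect of temperature. In B cells 0 of 43 members tested passed, on a background of 164 of 13153 (1.25%), with 5 members at an unadjusted p under 0.05 (18.7% of all genes tested) and 2 passing in DESeq2 (4.65%, against 3.99% of all genes). In B and plasma cells together the 2 plasma cell genes passed among 66 tested, on a background of 85 of 13391 (0.635%), 22 of them higher at 4 °C (0.164%). The median log2 fold change of tested members was 0.33 in plasma cells and -0.09 in B cells, against -0.01 and 0.00 over all genes. The plasma cell median was 0.74 and 0.36 without the 30 °C library 1 or 2, -0.09 and -0.97 without the 4 °C library 1 or 2, and 0.04 with all barcodes.

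Igkv8-27 held 1 and 2 UMIs at 30 °C and 188 and 155 at 4 °C in plasma cells (log2 fold change 6.96 ± 0.41 SE, edgeR adjusted p = 0.00504). The depth-scaled ratio was 136 (95% counting interval 46.2 to 664). Only 4 cells, with 126, 58, 78 and 76 UMIs, carried 338 of its 346 UMIs (97.7%), 2 in each cold library. They had 4 different heavy V genes, Ighv1-34, Ighv1-50, Ighv6-3 and Ighv1-81. In B cells Igkv8-27 held 10 and 9 UMIs at 30 °C and 16 and 39 at 4 °C (log2 fold change 1.40, adjusted p = 0.212).

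Igkv2-112 held 0 and 1 UMIs at 30 °C and 60 and 96 at 4 °C in plasma cells (log2 fold change 7.17 ± 0.58 SE, edgeR adjusted p = 0.0121). The ratio was 186 (95% counting interval 32.9 to 7391). A pair of cells with 54 and 96 UMIs, 1 in each cold library, carried 150 of its 157 UMIs (95.5%), and another cell with 5 UMIs shared Ighv5-4 and Ighm with the first. Both calls were lost with all deposited barcodes (adjusted p = 0.110 for Igkv8-27 and 0.0573 for Igkv2-112), where a 30 °C plasma cell left out by the filter held 4 Igkv8-27 UMIs. Without cells that held Cd3e or Cd3d UMIs, Igkv2-112 was at adjusted p = 0.0731 and Igkv8-27 fell under the filter on low counts. The intervals cover counting error only, and the number of cells, not of UMIs, is what limits both genes.

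**Figure D5:**
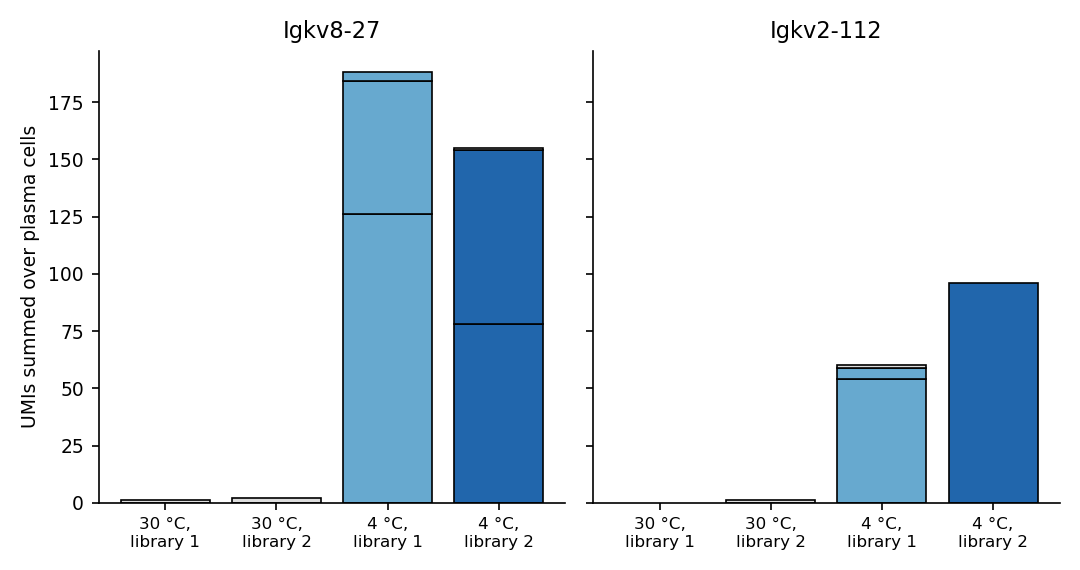
UMIs of Igkv8-27 (left) and Igkv2-112 (right) summed over the plasma cells of each library (y axis), with a line between the cells stacked in each bar. The 4 °C bars of 60 to 188 UMIs are made of 1 or 2 large cells each, and the 30 °C bars stand at 0 to 2.

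The count of passing members turned on single libraries. Leaving out the 30 °C library 1 or 2 or the 4 °C library 1 or 2 gave 16, 28, 10 and 11 passing members in plasma cells, with the lone library assumed to vary like the pair. All genes passing in the same fits numbered 165 of 9155, 206 of 9100, 45 of 9181 and 33 of 9050. In both populations together the count moved too. The median log2 fold change of tested members there was 0.41, 0.11, -0.48 and -0.89 with the same libraries left out. Both named genes passed in plasma cells in each of these fits.

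Other V genes held large differences without passing. Igkv12-44 held 931 and 732 UMIs at 30 °C and 332 and 121 at 4 °C in plasma cells (log2 fold change -1.59, adjusted p = 0.503, -2.60 to -0.99 with 1 library left out). Igkv1-117 held 315 and 342 against 607 and 536 (1.04, adjusted p = 0.152). Iglv2 held 885 and 266 against 79 and 242 (-1.60, adjusted p = 0.681), and the change was -0.57 without the 30 °C library 1 and -2.50 without the 4 °C library 2. Each of these 3 genes was the assigned V gene of 11 to 21 plasma cells in all 4 libraries, so that a few cells set each sum. With 1 library left out, Igkv12-44 passed without the 30 °C library 2 or the 4 °C library 1 (edgeR adjusted p = 0.00239 and 0.00763), Igkv1-117 without the 30 °C library 1 or 2 (0.0205 and 0.000282) and Iglv2 without the 30 °C library 2 (3.07e-05). In B cells Igkv10-96 held 43 and 40 against 266 and 74 UMIs (2.07, adjusted p = 0.233), and without the 4 °C library 1, where 1 cell held 161, the change was 0.58.

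Genes that assemble and fold light chains or regulate their cells were followed as a list of 25, of which Dntt, Igll1, Rag1 and Rag2, active in early B cell development, held 0 UMIs in both populations. In B cells 1 of 21 tested passed, Irf4, a transcription factor of B cell activation and plasma cell fate. It held 1405 and 1413 UMIs at 30 °C and 1963 and 2453 at 4 °C (log2 fold change 0.57 ± 0.07 SE, edgeR adjusted p = 0.0358). The background was 164 of 13153 genes (1.25%), and 7 of the 21 had an unadjusted p under 0.05 in edgeR (18.7% of all genes tested). The Irf4 call did not hold in every fit with 1 library left out. In plasma cells 0 of 20 passed in edgeR, with 5 at an unadjusted p under 0.05 (6.71% of all genes tested). The lambda constant gene Iglc2 held 148691 and 85895 UMIs at 30 °C against 28601 and 36140 at 4 °C in plasma cells (-1.61, adjusted p = 0.0686), in the same direction as Iglv2. Lambda-led cells made up 12.2 and 13.4% of plasma cells at 30 °C and 3.96 and 10.5% at 4 °C (exact permutation p = 0.333, the smallest possible).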

How the data were processed

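The 4 libraries were analysed, 2 per temperature. The authors deposited whole-number UMI counts per gene and cell, made by aligning 10x 3′ reads to GRCm38/mm10 with Cell Ranger (version 3.1.0 per the submitters' processing notes, which also list STAR and Seurat 4.2.0). Cells with over 200 and under 5000 genes and under 7.5% mitochondrial UMIs were kept, after the study's methods. No doublet caller was run: cells with a Cd3e or Cd3d UMI were left out as an alternative. Cells of 1 library are not replicates, so counts were summed per library and population and tested with edgeR 4.0.16 (TMM, filterByExpr, quasi-likelihood, Benjamini-Hochberg over all genes tested, threshold 0.05; R 4.3.3). DESeq2 1.42.0 was an alternative. Single values were compared by exact permutation or sign-flip tests over libraries, and p-values measure the spread between libraries of pooled mice. The counting intervals of ratios came from exact binomial intervals (scipy 1.17.1).

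Text genes were every Iglv member, the 10 members with the highest mean share of assigned cells in B cells (Igkv only) and in plasma cells, members that passed a test, and the 5 with most UMIs among those whose 10 highest cells held 50% or more. Genes outside it (Igkv7-33, Igkv2-109) were chosen after their values were seen, as was the light constant class. Members and lists were chosen with earlier results of these data known. Tested on simulated data for plasma cells (8295 genes), the fit recovered 24% of 2-fold and 91.5% of 4-fold changes, and 3.54% of its calls were false. The simulated counts varied as the trend fitted over all genes, whereas V gene sums in plasma cells rest on a few cells. These rates therefore need not hold for the members. V exons came from the GENCODE M21 annotation of GRCm38. Coordinates are 1-based.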

Additional observations from a re-analysis of the deposited data

Results flagged for a closer look

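Igkv14-111 moved in opposite directions in the B cells and the plasma cells of the same libraries: its log2 fold change from 30 °C to 4 °C was 0.33 in B cells (47 and 48 against 56 and 70 UMIs, adjusted p = 0.483) and -3.15 in plasma cells (563 and 197 against 2 and 71, adjusted p = 0.532, edgeR). The plasma cell value ran from -7.14 without the 4 °C library 2, leaving the one with 2 UMIs, to -2.22 without the 4 °C library 1, and it passed the threshold without the 30 °C library 2 (edgeR adjusted p = 9.8e-05) or the 4 °C library 2 (0.00700). Igkv2-109 did so too, with -1.24 in B cells (107 and 147 against 41 and 73 UMIs, adjusted p = 0.0900) and 1.82 in plasma cells (53 and 35 against 156 and 103, adjusted p = 0.156). In both genes every cold library lay on 1 side of both 30 °C libraries in each population. Both were picked by that rule from all members tested in both populations, so the separation is a selection and no test. Groups of 2 libraries can separate by spread alone, and the share of all genes that meet the rule was not counted. The difference between B cells and plasma cells was not tested for either gene.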

How the results depend on the processing

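Of the log2 fold changes of the named V genes under the alternatives, 395 kept their direction and side of the threshold, 23 passed newly, 3 no longer passed and 43 turned in direction, none of them past the threshold in either fit. The 3 are Igkv8-27 with all deposited barcodes and Igkv2-112 with all barcodes and without Cd3e or Cd3d cells. With all deposited barcodes the reversed values were 0.040 for Igkv1-117, -0.77 for Igkv19-93 and -0.025 for Iglv2 in B cells, and -0.087 for Igkv15-103, 0.33 for Igkv6-15 and -0.12 for Iglv3 in plasma cells. When cells with a UMI were counted the reversed values were 0.33 for Igkv12-46, 0.30 for Igkv14-126, 0.085 for Igkv15-103, 0.23 for Igkv17-127 and -0.34 for Igkv19-93 in B cells, and -0.014 for Igkv10-96 in plasma cells. Without Cd3e or Cd3d cells the reversed values were 0.12 for Igkv15-103 and -0.0072 for Iglv1 in B cells, and -0.035 for Igkv19-93 and 0.58 for Igkv6-15 in plasma cells. With 3 or more Cd79a UMIs the reversed values were 0.062 for Igkv14-126 and 0.086 for Igkv15-103 in B cells. With a mitochondrial limit of 15% the reversed value was 0.081 for Igkv12-46 in B cells. With the replicate block the reversed value was -0.026 for Igkv15-103 in plasma cells. With 1 library left out the B cell changes ran from -0.25 to 0.069 for Igkv1-117, from -0.64 to 0.60 for Igkv12-46, from -1.10 to 0.67 for Igkv14-126, from -0.73 to 0.43 for Igkv15-103, from -0.25 to 0.079 for Igkv17-127, from -0.29 to 0.53 for Igkv19-93, from -0.28 to 0.62 for Iglv1, from -0.32 to 0.64 for Iglv2 and from -0.088 to 0.44 for Iglv3. With 1 library left out the plasma cell changes ran from -1.49 to 0.041 for Igkv1-110, from -2.18 to 2.39 for Igkv1-135, from -0.72 to 1.81 for Igkv10-96, from -3.47 to 0.39 for Igkv12-46, from -1.14 to 3.28 for Igkv14-126, from -1.07 to 0.94 for Igkv15-103, from -10.29 to 1.09 for Igkv6-15, from -0.039 to 0.33 for Iglv1 and from -0.066 to 0.20 for Iglv3.

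The number of passing members in B cells (0) was 2 by the DESeq2 Wald test (4.65% of those tested, against 3.99% of all genes) and 1 with no filter on low counts (1.01% against 2.89%). In plasma cells (2) it was 5 by DESeq2 (8.62% against 0.471% of all genes), 49 with no filter (59.8% against 2.11%), 0 with all deposited barcodes, where 0 of 10231 genes passed and 11 members had an unadjusted p under 0.05, 0 without Cd3e or Cd3d cells, where 0 of 7622 genes passed and 4 members had an unadjusted p under 0.05, 0 of 7 tested when cells with a UMI were counted (an alternative added after seeing the data), and 10 to 28 with 1 library left out. In both together (2) it was 5 by DESeq2 (7.58% against 3.97%), 0 with all barcodes, 0 without Cd3e or Cd3d cells, and 0 to 6 with 1 library left out. The cause of these moves was not tested. With the replicate number as a block, 5 members passed in plasma cells (8.62% against 0.435% of all genes). Same-numbered libraries did not deviate together (correlations of -0.018, 0.037 and -0.035), so the numbers give no pairing, and the block changed the counts in B cells and in both together by 1 or less.

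The cold minus 30 °C difference in the lambda share of assigned B cells (6.01 percentage points) was 17.6 after thinning to 4000 UMIs per cell, and -4.77 to 16.8 with 1 library left out. The difference in the effective number in plasma cells (1.18) was -2.28 with an 80% limit for assignment, -2.12 when V genes were assigned within the light constant class (added after seeing the data), and -1.42 to 3.78 with 1 library left out. None of these differences was beyond the spread between libraries. At 4000 UMIs per cell, 64.7 to 76% of plasma cells and 0.369 to 0.76% of B cells were assigned.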

Other observations

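A pair of kappa genes was read mostly as single UMIs in B cells, and both were chosen after their values had been seen. Igkv2-107, annotated as a pseudogene, held 66 UMIs in 64 of 10852 B cells, 18, 18, 15 and 15 UMIs in the 30 °C and 4 °C libraries 1 and 2, and 1 UMI in plasma cells. Igkv4-51, annotated as a V gene, held 45 UMIs in 44 B cells, 7, 16, 11 and 11 per library, and 0 UMIs in the 481 plasma cells. Nearly all of these cells held a single UMI of the gene. Neither gene was found in T cells, 0 of 7268 cells, which allows a share of up to 0.0413% with a UMI (counting error only). In plasma cells, 0 of 481 cells for Igkv4-51 allows up to 0.624%, a limit above the share of B cells with either gene. For Igkv2-107, with 1 UMI in plasma cells, the limit is higher still. The counts therefore cannot show that plasma cells held these genes less often than B cells. Plasma cells, by comparison, held 85.4% ± 2.39 (SD, n = 4 libraries) of all light chain V UMIs.

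Iglv3 was detected in B cells but seldom led them. A UMI of it was found in 5.63, 5.71, 5.78 and 8.27% of B cells and in 0.113, 0.217, 0 and 0.175% of T cells, and 1 B cell and 0 plasma cells were assigned to it.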
